A study of Mus musculus with 16 samples.

Results

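Jchain and Mzb1 were the only genes of the antibody-secreting program that the selection found among the 24964 gene symbols counted in mouse gastric corpus. The selection took every symbol naming a constant, variable or joining gene of the immunoglobulin heavy, kappa or lambda chains, and it added Jchain and Mzb1. The immunoglobulin patterns matched 0 of the 24964 symbols, so the levels of IgA, IgM and IgG chains were not analysed here. The 2 members held 489 (Jchain) and 31 (Mzb1) read counts over all 16 libraries, and both exceeded the minimum of 10 counts set for describing a gene by itself. Jchain was detected in 16 libraries and Mzb1 in 13.

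The libraries came from 8-week-old female mice, 4 for each of 4 groups. WT-S and WT-A are wild-type C57BL/6 mice, and TTP-S and TTP-A are congenic C57BL/6 mice with the TTPΔARE genotype, in which the transcript of tristetraprolin (TTP, gene Zfp36) lacks its AU-rich element. The groups ending in A are labelled as having gastric inflammation induced by adrenalectomy (ADX), and those ending in S carry a treatment label that names spasmolytic polypeptide-expressing metaplasia (SPEM). The labels do not say what the letter S means or whether these mice were operated on, and they do not say whether each library is 1 mouse, so p-values measure only the spread between these libraries.

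Plasma cells are the end stage of the B cell lineage and secrete antibody. The J chain joins the units of polymeric IgA and IgM, and the polymeric immunoglobulin receptor, Pigr, then carries these antibodies across mucosal epithelium. Mzb1 is a chaperone of the endoplasmic reticulum that helps antibody assembly in marginal zone B cells and plasma cells. In the stomach, such cells lie in the lamina propria between the glands.

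Jchain lies on chromosome 5 at chr5:88519809-88527897, on the minus strand (RefSeq, GRCm38.p6, the build that the name mm10 in the submitters' processing notes also denotes). The 250 bases before its start, chr5:88527898-88528147, are shown because they are the control region of the member on which the results turn. They are written 5′ to 3′ on the gene's strand, with matches to CANNTG, the E-box read by basic helix-loop-helix factors of the B lineage among others, in capitals.
Jchain promoter: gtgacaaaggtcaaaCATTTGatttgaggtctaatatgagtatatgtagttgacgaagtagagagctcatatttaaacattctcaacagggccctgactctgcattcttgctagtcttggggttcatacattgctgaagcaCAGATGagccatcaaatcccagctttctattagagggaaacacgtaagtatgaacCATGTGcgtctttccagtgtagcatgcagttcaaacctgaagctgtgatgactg
The stretch held 3 matches to CANNTG, and 12.2% of 32851 RefSeq promoters of the same length held at least as many. The octamer ATGCAAAT, known from immunoglobulin promoters, was not found on either strand (1.6% of promoters had it), nor was the glucocorticoid receptor half-site AGAACA (16.1% had it).

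Because the mutant allele alters the level of an RNA-binding protein, the 3′ untranslated region of Jchain was searched for TATTTAT, the DNA spelling of the core that TTP binds. It held 1 match, which begins at base 475 of 801 and stands in capitals in its surroundings.
Jchain TTP core: atatttactaaTATTTATgaaagactttt
Among 882 tested genes with a 3′ untranslated region within 10% of that length, 19.6% held the same letters. The region of Mzb1, 303 bases long, held 0 matches.

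All libraries carried the corpus transcript Atp4a, the parietal cell proton pump, with 201068 to 328461 counts. Library totals ranged from 17453930 to 25849472 counts. Zfp36 followed its label, at 55.1 to 88.6 CPM in the 8 WT libraries and 110.5 to 131 CPM in the 8 TTPΔARE libraries. CPM, the usual depth-normalized read count, was taken relative to the library total after scaling by the trimmed mean of M-values (TMM). WT-A 3 and WT-A 4 stood apart, since genes of higher GC content were more abundant in them relative to the median library (Spearman rho 0.716 and 0.738 across genes, and at most 0.302 in size for the other 14). The main results that involve WT-A are therefore also given from the other 14 libraries. Those keep only WT-A 1 and WT-A 2 of the WT-A group, and whether calls were lost there through fewer libraries was not tested.

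Jchain was highest in WT-S and lowest in TTP-S. It had 155, 33, 66 and 51 counts in WT-S 1 to 4, which is 8.68, 1.40, 2.90 and 2.61 CPM. In WT-A 1 to 4 it had 23, 30, 49 and 5 counts, or 0.830, 1.03, 1.91 and 0.217 CPM. In TTP-S 1 to 4 it had 6, 2, 8 and 9 counts, or 0.243, 0.0823, 0.395 and 0.443 CPM. The lowest WT-S library was thus above all 4 TTP-S libraries, whereas WT-A 4 lay among the TTP-S libraries and WT-A 3 above WT-S 2. In TTP-A 1 to 4 it had 28, 9, 5 and 10 counts, or 1.27, 0.435, 0.240 and 0.463 CPM. The group means fell in the order WT-S (3.90 ± 3.25 CPM), WT-A (0.998 ± 0.701 CPM), TTP-A (0.602 ± 0.457 CPM) and TTP-S (0.291 ± 0.163 CPM; SD, n = 4 each). Each group in this order overlapped the next.

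**Figure D1:**
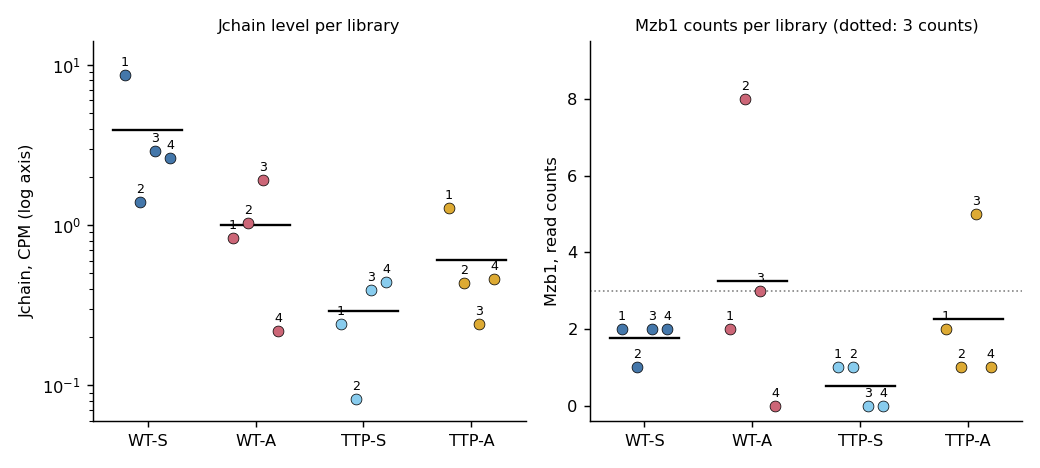
Left, Jchain level per library in CPM on a log axis. Right, Mzb1 read counts per library on a linear axis, with a dotted line at 3 counts. Points are libraries with their replicate number and bars are group means (n = 4). The 4 WT-S libraries (1.40 to 8.68 CPM of Jchain) sit above the 4 TTP-S libraries (0.0823 to 0.443 CPM), and Mzb1 exceeds 3 counts only in WT-A 2 and TTP-A 3.

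In WT mice, Jchain fell with condition A. The log2 difference of WT-A from WT-S was -1.94 (SE 0.60, edgeR quasi-likelihood adjusted p = 0.0354), beside 18.8% of the 15385 genes tested that were called (8.99% lower), that is, with an adjusted p under 0.05. The exact two-sided permutation test of log2 CPM gave p = 0.0571 for it. The call rested on few counts. Without WT-S 1, the library with the most Jchain, the difference was -1.19 (adjusted p = 0.133), and the call also ended without WT-S 3 (0.0521), WT-S 4 (0.0515), WT-A 2 (0.0506) or WT-A 4 (0.0721). In the 14 libraries the difference was -2.04 (adjusted p = 0.0707). In a bulk biopsy, fewer cells of a type and less transcript per cell cannot be told apart.

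Between genotypes in condition S, Jchain was 13.4-fold lower in TTP-S than in WT-S, a log2 difference of -3.74 (SE 0.71), the largest difference of Jchain among the 4 pairwise comparisons. Its unadjusted p was 7.83e-05, and the adjusted p of 0.0828 missed the threshold in a comparison where 0.0325% of genes passed it, 5 higher and 0 lower. The groups did not overlap, which held for 3.24% of genes in this direction, and the exact two-sided permutation p was 0.0286, the smallest that 70 arrangements allow. In the 14 libraries, where the WT-S and TTP-S libraries are all kept, the difference was also -3.74 and passed (adjusted p = 0.0215). It passed with the DESeq2 Wald test (3.28e-05) and with limma voom (log2 -3.37, adjusted p = 0.0101). Without WT-S 1 the difference was -2.998 (adjusted p = 0.222).

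The other comparisons of Jchain missed the threshold. TTP-A exceeded TTP-S by a log2 of 1.08 (SE 0.80, edgeR adjusted p = 0.593; exact permutation p = 0.229), in a comparison that called 2.9% of genes (1.55% higher, 1.35% lower). Only TTP-A 1 and TTP-A 4 were above all TTP-S libraries, and without TTP-A 1 the difference was 0.42 (adjusted p = 0.961). TTP-A was below WT-A by a log2 difference of -0.72 (SE 0.67, adjusted p = 0.491; exact permutation p = 0.486; 14 libraries -0.62, adjusted p = 0.685). That difference was -0.22 without WT-A 3 and -1.39 without TTP-A 1. The genotype by condition interaction, which tests whether the response to condition A differs between the genotypes, was 3.02 (SE 0.99). Its unadjusted p was 0.00785 and its adjusted p 0.200 (14 libraries 3.13, adjusted p = 0.202), with 0.0585% of genes called, so the opposite signs of the WT and TTPΔARE responses did not pass as a difference. WT-A against WT-S shares libraries with TTP-S against WT-S, so these values are not independent of each other.

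**Figure D2:**
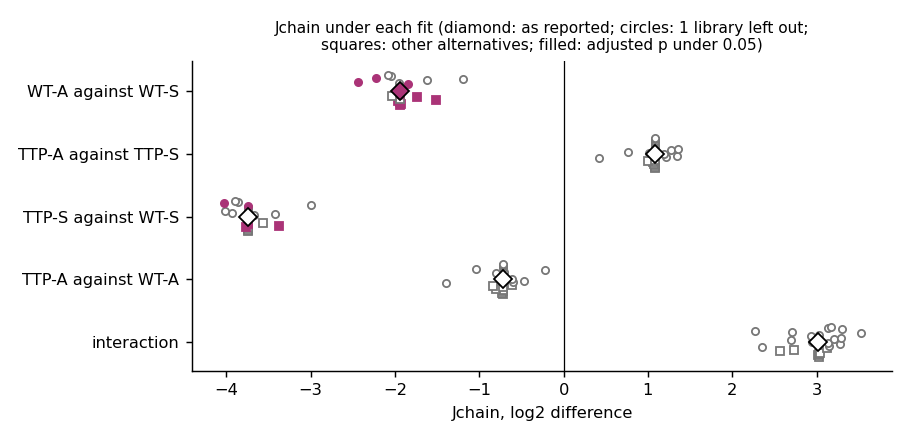
Log2 difference of Jchain in 5 comparisons (rows) under each way of fitting the counts. Diamonds are the values as reported, circles leave out 1 library, squares are the other alternatives, and filled symbols have an adjusted p under 0.05. No symbol crosses 0, and filled symbols occur only for WT-A against WT-S and TTP-S against WT-S.

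Mzb1 was close to the limit of detection. It had 2, 1, 2 and 2 counts in WT-S 1 to 4, and 1, 1, 0 and 0 in TTP-S 1 to 4. It had 2, 8, 3 and 0 counts in WT-A 1 to 4, and 2, 1, 5 and 1 in TTP-A 1 to 4. At most 3 counts were found in 14 of the 16 libraries, which is why Mzb1 was too low to be tested in the model and no fold is given. WT-S and TTP-A each lay above TTP-S on the log2 CPM scale without overlap (exact two-sided permutation p = 0.0286 for both). Of the genes tested, 3.24% and 6.94% did so. However, where 1 count met 1 count the order of Mzb1 came from the library sizes alone. The edgeR model with genes of at least 10 counts in all gave adjusted p = 0.828 for TTP-S against WT-S and 0.383 for TTP-A against TTP-S. For WT-A against WT-S and TTP-A against WT-A the exact p was 0.914 and 0.971. In all, 8 such permutation tests were made on the 2 members. Summed, the members reached 3.98 ± 3.27 CPM in WT-S, and the WT-A mean was 1.11 ± 0.758 CPM (SD, n = 4 each). In TTP-A the sum was 0.709 ± 0.436 CPM, and the TTP-S mean was lowest at 0.311 ± 0.142 CPM, so the sum followed Jchain.

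Genes listed here as a plasma cell program were called in both directions in WT-A. Several were far above Jchain (3.90 CPM in WT-S), with WT-S means of 133 CPM for Edem1, 181 for Sdc1, 239 for Ell2 and 276 for Xbp1. Which cells these transcripts came from was not tested. Of a list of 16 genes of the plasma cell program, 13 were tested, and in WT-A against WT-S 2 were called higher and 3 lower, beside 9.8% and 8.99% of all genes tested. The count of 5 was 4 in the 14 libraries (10.4% of all genes called), 3 without WT-A 3 (8.23%), 7 without WT-A 1 (32.2%) and 2 when WT-A and WT-S were fitted alone (4.49%). The median log2 difference was 0.053 for the list and 0.0094 for all genes. The summed level of the 16 genes ranged from 1207.4 to 1261.6 CPM in WT-S and from 1126.5 to 1182.6 CPM in WT-A. It ranged from 1160.2 to 1195.9 CPM in TTP-S and from 1207.1 to 1285.1 CPM in TTP-A. Prdm1, the repressor that drives plasma cell differentiation, rose from 5.63 ± 0.856 to 9.46 ± 1.80 CPM (log2 0.75, SE 0.18, adjusted p = 0.013; 14 libraries 0.96, adjusted p = 0.0093). Pou2af1, the B cell coactivator of octamer-binding factors, rose by a log2 of 1.19 (adjusted p = 0.0275) and is named although it was chosen after its values were seen. Tnfrsf17, the receptor BCMA that marks mature plasma cells, was at or under 2 counts in all 16 libraries.

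The 3 genes called lower were Derl3, Edem1 and Ell2. Derl3, which serves the export of misfolded proteins from the endoplasmic reticulum, fell from 9.51 ± 0.249 CPM in WT-S to 4.84 ± 1.73 CPM in WT-A (log2 -0.98, SE 0.21, adjusted p = 0.00737; 14 libraries -1.32, adjusted p = 0.00303). Edem1, of the same degradation pathway, fell by 0.41 (adjusted p = 0.00794; 14 libraries -0.23, adjusted p = 0.0402), and the elongation factor Ell2 fell by 0.46 (adjusted p = 0.0249; 14 libraries -0.18, adjusted p = 0.168), a call that ended in 4 of 8 fits without 1 WT library (highest adjusted p = 0.0783, without WT-A 3). The chief cell transcripts Pgc (log2 -0.82, adjusted p = 0.0219; 14 libraries -1.24) and Gif (-0.68, adjusted p = 0.0107; 14 libraries -1.002) fell in the same comparison, and their part in these values was not tested. All 3 genes were higher in TTP-A than in WT-A, namely Derl3 by a log2 of 0.99 (adjusted p = 0.0232; 14 libraries 1.33, 0.00974), Ell2 by 0.51 (adjusted p = 0.036; 14 libraries 0.24, 0.132) and Edem1 by 0.37 (adjusted p = 0.0327; 14 libraries 0.19, 0.136). Sdc1, the syndecan CD138 that is also found on epithelium, was lower in TTP-A (-0.30, adjusted p = 0.0259; 14 libraries -0.26, 0.0954). These were the 4 of 13 genes called between TTP-A and WT-A, where 5.17% of all genes were called (2.87% higher, 2.3% lower). Leaving out 1 of these 8 libraries ended the call of Edem1 and Ell2 in 6 fits each and of Derl3 and Sdc1 in 3 each. The count was 0 without TTP-A 2, where 1.71% of all genes were called, and 0 when these 8 libraries were fitted alone, where 1 of 15042 genes was. Between TTP-A and TTP-S only Xbp1 was called (1 of 13, beside 1.55% of all genes called higher). Xbp1, the transcription factor of the secretory stress response, rose by 0.25 (adjusted p = 0.0385), a call that ended in 7 of the 8 fits that left out 1 of those libraries, with the highest adjusted p (0.138) without TTP-A 4. DESeq2 called 2 of the 13 and limma voom 6, where they called 5.26% and 15.2% of all genes, and the 14 libraries and the fit of these 8 libraries alone gave 2 each (6.26% and 8.05% of all genes). None of the 13 passed the interaction in edgeR, though 7 had an unadjusted p under 0.05, as did 2344 of all 15385 genes. DESeq2 and limma voom called 2 each, beside 1.9% and 1.11% of all genes, and in edgeR Derl3 was at 1.14 there (adjusted p = 0.13).

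**Figure D3:**
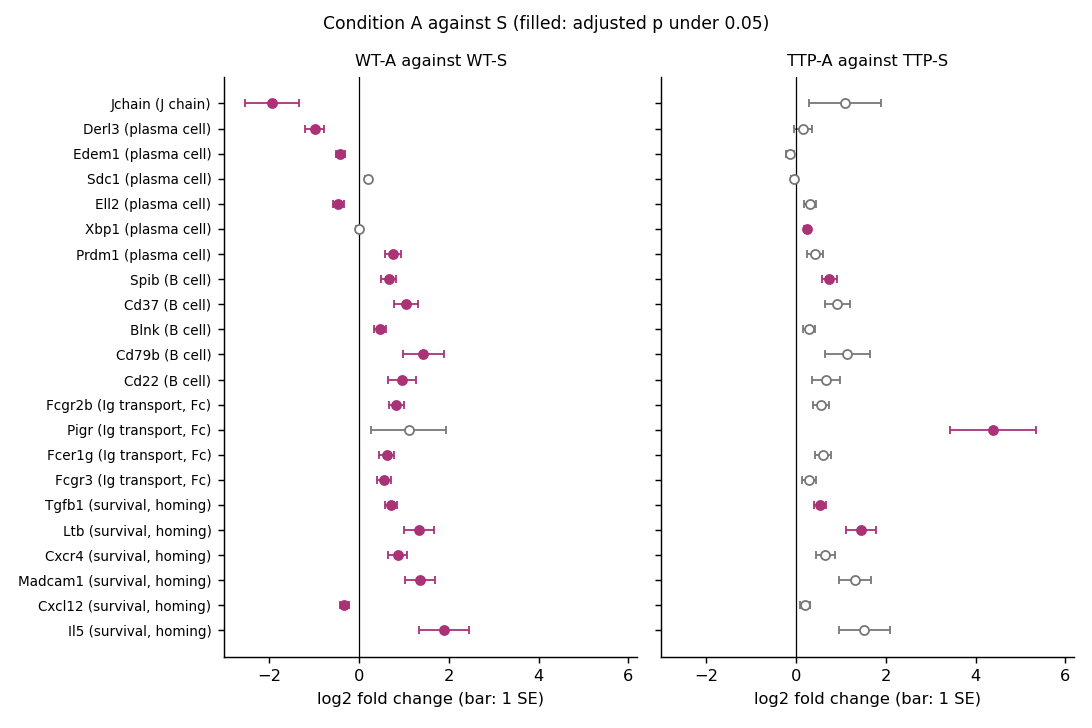
Log2 fold change with 1 SE (horizontal axis) of Jchain and of the named genes of 4 lists (rows) for condition A against S in WT (left) and TTPΔARE mice (right), 4 libraries per group. Filled points have an adjusted p under 0.05. On the left, Jchain (-1.94) lies below 0 and the 5 B cell markers drawn, which are those called, lie above it, and on the right Pigr (4.38) has the largest value shown.

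Of 21 B cell markers 10 were tested, and in WT-A against WT-S 5 were called higher and 0 lower, beside 9.8% and 8.99% of all genes. The list median was 0.53. The estimate was above 0 for 8 of the 10 and below 0 for 2 that did not pass, the transcription factors Ebf1 (log2 -0.29, adjusted p = 0.148) and Bcl11a (-0.10, adjusted p = 0.476). The immunoglobulin-associated chain Cd79b of the B cell receptor rose from 0.253 ± 0.166 to 0.669 ± 0.0778 CPM (log2 1.43, SE 0.46, adjusted p = 0.0395). The inhibitory co-receptor Cd22 rose by 0.96 (adjusted p = 0.0432), the tetraspanin Cd37 by 1.05 (0.0172), the adaptor Blnk by 0.47 (0.0194) and the transcription factor Spib by 0.66 (0.0151). In the 14 libraries only Blnk was called (0.57, adjusted p = 0.0159), where 10.4% of all genes were, and the log2 differences were 1.36 for Cd79b, 1.04 for Cd37, 0.85 for Cd22 and 0.54 for Spib. Without WT-A 3 the count was 0, beside 8.23% of all genes, and fitting WT-A and WT-S alone gave 1, beside 4.49%. With the DESeq2 Wald test it was 5, beside 21.6% of all genes. Leaving out 1 of the 8 WT libraries ended the call of Cd79b in 6 fits, of Cd22 in 4, of Cd37 and Blnk in 2 each and of Spib in 1. The library whose absence raised the adjusted p most was WT-S 2 for Cd79b, Cd37 and Blnk and WT-A 3 for Cd22 and Spib.

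Some of the most specific B cell genes were too low to be tested. Cd79a, a signalling chain of the B cell receptor, had 18 counts over the WT-S libraries, 47 over WT-A, 7 over TTP-S and 22 over TTP-A. Ms4a1, which encodes CD20, had 1, 12, 2 and 12 counts in the same order. The sum of Cd79a was highest in WT-A, where Jchain was not highest. The summed level of the 21 markers ranged from 43.1 to 48.6 CPM in WT-S and from 50.04 to 64.8 CPM in WT-A, which did not overlap, as for 9.2% of single genes in this direction. Blnk (10.98 to 15.19 CPM) and Spib (7.49 to 11.8 CPM), both called above, made up most of the rise of the mean sum from 46.6 to 58.0 CPM. It ranged from 40.1 to 45.8 CPM in TTP-S and from 49.2 to 60.5 CPM in TTP-A, again without overlap (6.94% of single genes).

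In TTPΔARE mice the same list had a median of 0.55, with 1 of 10 markers called higher and 0 lower, beside 1.55% and 1.35% of all genes. An unadjusted p under 0.05 was found for 7 of the 10, and for 2440 of all 15385 genes. The 1 marker called was Spib, which rose from 5.85 ± 0.586 CPM in TTP-S to 9.79 ± 1.14 CPM in TTP-A (log2 0.74, SE 0.17, adjusted p = 0.0294), a call that ended in 6 of the 8 fits that left out 1 of these libraries (highest adjusted p = 0.12, without TTP-A 1). DESeq2 called 2 markers, beside 5.26% of all genes, and limma voom called 5, beside 15.2%. Neither genotype comparison called a B cell marker in edgeR (TTP-S against WT-S, 0 of 10 at an unadjusted p under 0.05; TTP-A against WT-A, 2 of 10), and DESeq2 called 0 and 1, and limma voom 0 and 0. Of all genes, DESeq2 called 0.546% and 11.2% in these 2 comparisons, and limma voom 1.14% and 5.17%. An unadjusted p under 0.05 in edgeR held for 1153 and 4225 of 15385 genes. For no marker was the interaction called, and 0 of 10 had an unadjusted p under 0.05 there (0 called by DESeq2 and by limma voom).

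Some markers of other leukocytes were also called higher in WT-A, where 9.8% of all genes were. In the 14 libraries 10.4% of all genes were called in either direction. T cell markers (2 of 5 tested called higher, Cd2 and Thy1; 0 in the 14 libraries) summed to 10.4 to 14.6 CPM in WT-S and 12.7 to 22.1 CPM in WT-A, with Cd3d at 2 counts in all of WT-S. Thy1 (7.56 CPM) and Cd4 (3.29 CPM) made up most of the mean WT-S sum of 12.2 CPM, and their cell source was not tested. Macrophage markers (4 of 8 called higher, Cd68, Cd14, Csf1r and C1qc; 2 with estimates below 0; 1 called in the 14 libraries) summed to 112 to 141 CPM in WT-S and 133 to 207 CPM in WT-A. Genes of squamous forestomach epithelium summed to 3.90 to 357 CPM in WT-S and 58.6 to 2063 CPM in WT-A, with 1 of 9 called higher (Krt6a, log2 4.19; 14 libraries 4.83, adjusted p = 0.0168). In TTP-A 0 of these T cell and macrophage markers were called against TTP-S (2 of 5 and 2 of 8 at an unadjusted p under 0.05; DESeq2 0 and 0; limma voom 1 and 1). Of all genes, 2440 of 15385 had such a p, DESeq2 called 5.26% and limma voom 15.2%. The estimate in TTP-A was above 0 for 4 of the 5 and 8 of the 8. The T cell and macrophage list medians were 0.53 and 0.28 in TTP-A against TTP-S, and 0.59 and 0.38 in WT-A against WT-S. In WT-A 1 of 5 intestinal markers was called higher (Alpi, log2 1.66, adjusted p = 0.0283, a call lost in 5 of 8 fits without 1 WT library), and edgeR called 0 of 6 adipocyte and 0 of 2 exocrine pancreas markers (1 each at an unadjusted p under 0.05; DESeq2 1 and 0). In that comparison 5620 of all 15385 genes had an unadjusted p under 0.05 in edgeR, and DESeq2 called 21.6% of all genes. Relative to TTP-S, TTP-A had lower calls for the surface mucous cell transcript Muc5ac (log2 -1.04, adjusted p = 0.0228), the adipocyte transcripts Cfd (-1.45, 0.0417) and Fabp4 (-0.68, 0.0208) and the elastase Cela1 (-0.46, 0.0352). Leaving out 1 of these 8 libraries ended the call of Muc5ac and Cela1 in 6 fits each, of Cfd in 7 and of Fabp4 in 5. The 6 adipocyte markers summed to 218 to 348 CPM in TTP-S and 124 to 183 CPM in TTP-A, without overlap (6.77% of single genes in this direction). The part of all these markers in the values of the B cell list, and in those of Xbp1, Ltb, Tgfb1 and Pigr in TTP-A, was not tested. Across the 16 libraries, which share the 4 groups, the summed level had a Spearman rho with Jchain of 0.43 for the transport and Fc binding list, which holds Pigr, 0.27 for the plasma cell program, 0.21 for B cell markers, -0.34 for corpus markers and -0.46 for T cell markers.

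Pigr, which transports the J chain-bearing antibodies, rose in TTP-A. Its level was 15.7, 7.45, 11.1 and 10.9 CPM in TTP-S 1 to 4. The 4 TTP-A libraries had 546, 67.6, 40.0 and 288 CPM. The log2 difference was 4.38 (SE 0.96, adjusted p = 0.026), and every TTP-A library was above every TTP-S library, as for 6.94% of genes in this direction. The call ended in 6 of the 8 fits that left out 1 of these libraries (without TTP-A 1 the log2 difference was 3.54 and the adjusted p 0.0996, the highest of them). Pigr was at 336, 35.1, 25.4 and 76.4 CPM in WT-S 1 to 4. The WT-A libraries had 356, 383, 214 and 60.1 CPM, so these groups overlapped (log2 1.1, SE 0.82, adjusted p = 0.342). TTP-S was below WT-S by a log2 difference of -3.38 (SE 0.93, adjusted p = 0.287), a difference that missed the threshold. As for Jchain, every TTP-S library was below every WT-S library, which held for 3.24% of genes in this direction. The mucous neck cell transcript Muc6 also rose in TTP-A (log2 2.13, adjusted p = 0.0352; 1.63 and 0.15 without TTP-A 1), and WT-S 1 was the highest WT-S library for Jchain, Pigr and Muc6 alike. Whether these levels are linked was not tested.

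**Figure D4:**
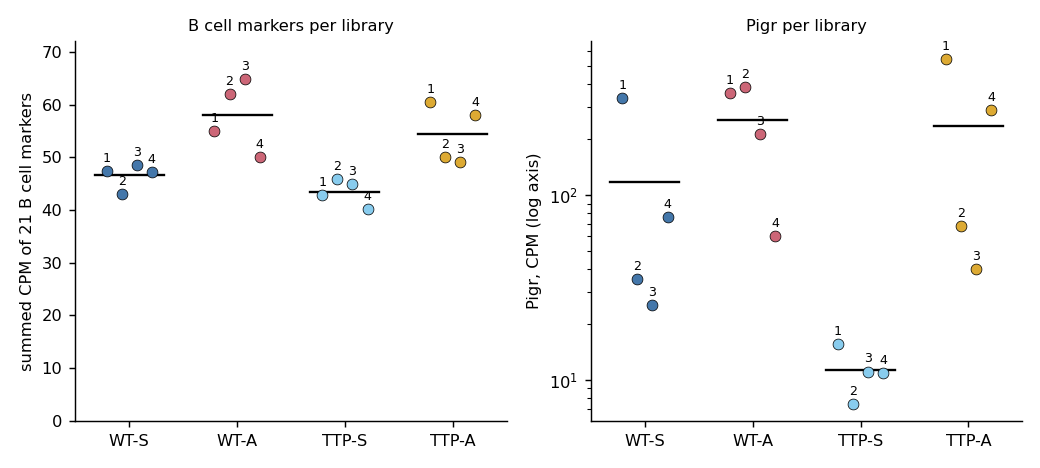
Left, summed CPM of 21 B cell markers per library on a linear axis from 0. Right, Pigr in CPM on a log axis. Points are libraries with their replicate number and bars are group means (n = 4). The B cell sum is higher in condition A in both genotypes, and the 4 TTP-S libraries hold the lowest Pigr levels (7.45 to 15.7 CPM).

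Of the 9 genes of immunoglobulin transport and Fc binding, all were tested, and 3 were called higher in WT-A, beside 9.8% of all genes. They were the inhibitory IgG receptor Fcgr2b (log2 0.84, adjusted p = 0.0051), the signalling chain Fcer1g (0.62, 0.0219) and Fcgr3 (0.55, 0.0262). In the 14 libraries Fcgr2b alone was called (0.80, adjusted p = 0.0228), beside 10.4% of all genes, and without WT-A 3 the count was also 1, beside 8.23%. Macrophages also carry these receptors. In TTP-A against TTP-S, Pigr was the 1 gene called higher, beside 1.55% of all genes, while DESeq2 called 3 of the 9 (5.26% of all genes), limma voom 5 (15.2%) and the fit of these 8 libraries alone 3 (8.05%). Between TTP-S and WT-S, edgeR called 0 genes of this list (3 at an unadjusted p under 0.05; DESeq2 2), 0 of the plasma cell program (2; DESeq2 0) and 0 of the survival and homing list described next (2; DESeq2 0). In that comparison DESeq2 called 0.546% of all genes, and 1153 of 15385 genes had an unadjusted p under 0.05 in edgeR.

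Of 24 genes for the survival and homing of B cells and plasma cells 16 were tested, and in WT-A against WT-S 6 were called higher and 1 lower, beside 9.8% and 8.99% of all genes. The estimate was above 0 for 11 and below 0 for 5. Madcam1, the vascular address of mucosal lymphocytes, rose from 1.79 ± 0.989 to 4.51 ± 0.0626 CPM (log2 1.35, SE 0.33, adjusted p = 0.0138). Ltb, which organizes lymphoid tissue, rose by 1.33 (adjusted p = 0.0151), Il5 by 1.89 (0.0274), the chemokine receptor Cxcr4 by 0.87 (0.0132) and Tgfb1, a switch factor for IgA, by 0.71 (0.0037). Ccr7, a lymphocyte homing receptor named after its values were seen, rose by 1.38 (0.0355). Cxcl12, which holds plasma cells in their niches, fell by 0.32 (adjusted p = 0.0397; -0.25, adjusted p = 0.139, without WT-S 2). In the 14 libraries 4 remained called higher, Tgfb1, Ltb, Cxcr4 and Madcam1, and Cxcl12 lower, beside 10.4% of all genes. The fit of WT-A and WT-S alone called 1 gene (4.49% of all genes), and that without WT-A 3 called 4 (8.23%). Leaving out 1 of the 8 WT libraries ended the call of Cxcl12 in 6 fits, of Il5 in 3 and of Ltb in 1. WT-S 2 was the library whose absence mattered most for these 3 genes. Such fits ended none of the calls of Tgfb1, Cxcr4 and Madcam1.

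In TTP-A against TTP-S, 2 of the 16 were called, both higher, beside 1.55% of all genes. DESeq2 called 4, limma voom 7 and the fit of these 8 libraries alone 4, where 5.26%, 15.2% and 8.05% of all genes were called. A fit with the replicate number as a block called 0, beside 2.78% of all genes. Ltb rose by 1.45 (adjusted p = 0.0351) and Tgfb1 by 0.54 (adjusted p = 0.0427), and without TTP-A 1 neither was called. Leaving out 1 of these 8 libraries ended the call of Ltb in 7 fits and of Tgfb1 in 6. Ccl28, which draws IgA-secreting cells to mucosa, was called in neither condition comparison, at a log2 of -0.70 in WT-A (adjusted p = 0.0524) and 0.25 in TTP-A (0.72).

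Most genes that assemble or switch antibody genes were too low to be tested. Of 9, only Ung, a uracil glycosylase with a part in class switching, and Ighmbp2, a helicase outside the selection despite its symbol, were tested. Neither was called by edgeR, DESeq2 or limma voom in any of the 5 contrasts, and neither had an unadjusted p under 0.05 in edgeR. Rag1 had 1 count over all 16 libraries. Igll1, a surrogate light chain of immature B cells that was chosen after its values were seen, had 1, 3, 2 and 1 counts in WT-A 1 to 4 and 0 in the other 12 libraries, which allows up to 3 counts in each.

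Among the 8 tested genes whose log2 CPM followed Jchain most closely over the 16 libraries, of those with a mean of at least 1 CPM, were Exoc1, Trnp1, Tsacc, Cracr2a, Map2k3os, Med30 and Mfsd9. The Spearman rho of these genes ran from 0.747 (Mfsd9) to 0.791 (Exoc1). By Pearson's r 2 of them stayed among the top 8, and in the 14 libraries 1 did. None of those named belonged to the lists of the B cell lineage.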

How the data were processed

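RNA from a 4 mm biopsy of the corpus was sequenced per the labels' protocols. The authors deposited raw counts of reads per gene symbol, 1 column per library. The submitters' processing notes name STAR 2.7.0f, featureCounts, Subread 1.6.4, DESeq2 and mm10 without roles. The annotation and the strand setting are not given in the sources used here, so reads shared by overlapping genes could have been counted together. Members, lists and rules were chosen with earlier results of these data known.

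Counts were fitted with edgeR 4.0.16 in R 4.3.3: filterByExpr left 15385 genes, libraries were scaled by TMM, and a quasi-likelihood model with 1 mean per group was fitted over all 16 libraries. P-values were adjusted by Benjamini-Hochberg over all genes tested, and SEs were derived from the estimate and the F statistic. Exact permutation tests used log2 CPM with a prior count of 2. No test was made on sums over genes or on lists. Named genes were the members, Zfp36, up to 6 called genes per list (or the 2 with the highest mean CPM where none was called) and the 8 most like Jchain, some of which are not reported here. Called means an adjusted p under 0.05. Lists of corpus, adipocyte, exocrine pancreas and intestinal markers were also counted.

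GC content came from the longest GENCODE transcript per symbol (98.9% of genes tested) and was compared over 11493 genes. Counts of same-group libraries differed beyond sampling noise (24 pairs, chi-square over its degrees of freedom 4.9 to 94.7), and each counted as 1 replicate. Counting intervals are not given, and limits set by 3 counts cover counting error only. Alternatives were DESeq2 1.42.0 size factors and its Wald test, limma 3.58.1 voom with sample weights, looser filters, fits of only the groups compared, the replicate block, the 14 libraries, and leaving out each library. The fits were also run on simulated data, with results not reported here.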

Additional observations from a re-analysis of the deposited data

Results flagged for a closer look

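In groups of 4, a library was set apart where its gap to the nearest other library exceeded Dixon's critical share of the group's range. This was so in 10 of 164 groups examined for the members and named genes, and chance alone gives about 1 in 20. No value of Jchain or Mzb1 was among them. In WT-S 1, Pigr was at 336 CPM against 25.4 to 76.4 in the other WT-S libraries, and Muc6 at 2360 CPM against 464 to 779. The lowest libraries of their group were WT-A 1 for Sdc1 (187 CPM, others 212 to 214), WT-A 4 for Cd68 (20.2 CPM, others 29 to 30), TTP-S 4 for Fcgr3 (5.26 CPM, others 6.57 to 6.68) and TTP-A 2 for Tgfb1 (14.7 CPM, others 18.5 to 19.3). The highest were WT-A 3 for Spib (14.8 CPM, others 10.7 to 10.9), TTP-A 1 for Cd79b (0.59 CPM on 13 counts, others 0.324 to 0.338), TTP-S 4 for Cxcl12 (73.8 CPM, others 66.2 to 67.2) and TTP-S 1 for Krt6a (2.39 CPM, others 0.247 to 0.541).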

How the results depend on the processing

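The sign of Jchain held in all 118 alternative values over the 5 contrasts, and 105 stayed on the same side of the threshold. For WT-A against WT-S the call ended in a fit of only the groups compared (-1.94, adjusted p = 0.111) and in the 14 libraries (-2.04). Leaving out 1 library gave -2.44 to -1.19. For TTP-S against WT-S the threshold was passed with the DESeq2 Wald test (-3.76), voom (-3.37), only the groups compared (-3.74, adjusted p = 0.0431) and the 14 libraries (-3.74), and leaving out 1 library gave -4.03 to -2.998, passing without WT-S 2 or WT-A 4. The cause was not tested. With the TTPΔARE libraries alone, Jchain was too low to be tested. The difference of Mzb1 changed sign for WT-A against WT-S with a prior count of 0.5 (-0.12) and for TTP-A against WT-A with unscaled library totals (-0.053). The replicate block gave Jchain -1.73 (adjusted p = 0.0496) for WT-A against WT-S and -3.57 (0.0785) for TTP-S against WT-S. Same-numbered libraries correlated at -0.42 to 0.33, with 4 of 16 pairs over 0.1 and 4 best with their own number, so the numbers were not taken to pair libraries. Under the block Cd79b (WT; adjusted p = 0.0595), C1qc (WT; 0.0699), Ltb (0.0602), Tgfb1 (0.0516), Muc6 (0.0526) and Cfd (0.0649; these 4 in TTPΔARE) were not called. Of 43 calls of named list genes, 5 held in every alternative, and 247 of 1030 alternative values lost the call with none reversed. Genes called in WT-A against WT-S numbered 1620 in 14 libraries against 2891. Depth limits Mzb1, Ms4a1, Igll1 and Rag1, which were too low to be tested.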
